A study of Mus musculus with 6 samples.

Results

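The kallikrein-related peptidases are secreted serine proteases encoded side by side on human chromosome 19. They were followed here in 22Rv1 prostate cancer cells before and after the selection of resistance to BL-B01D1. The genes described were selected by gene symbol: KLK1, KLK2, KLK3, KLK4, KLK5, KLK6, KLK10, KLK11, KLK14 and KLK15, that is 10 of the 58735 genes in the deposited count table. All 10 symbols were found once each.

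Kallikreins are made as inactive precursors, leave the cell by secretion and become active when another protease, often another kallikrein, removes a short propeptide. In the luminal cells of the prostate, KLK3 (prostate-specific antigen, PSA), KLK2 and KLK4 are classical androgen-induced products, and they take part in a proteolytic cascade that liquefies semen. Blood PSA is the standard marker of prostate cancer burden, and KLK2 protein is itself used as a target on prostate tumor cells.

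The 22Rv1 line is an established human castration-resistant prostate cancer line of luminal character. BL-B01D1 is a bispecific antibody-drug conjugate that binds EGFR and HER3 and carries Ed-04, a camptothecin-derived topoisomerase I inhibitor. Bulk poly(A) RNA-seq was available for 3 libraries of vehicle-treated 22Rv1 cells, called parental here, and 3 libraries of 22Rv1 BL-B01D1_R, a subline obtained by stepwise drug exposure and called resistant here. The treatment label reads vehicle for the parental libraries and BL-B01D1 for the resistant ones. The labels give neither a drug concentration nor a statement of whether drug was present at harvest. Selection and any drug exposure at harvest therefore cannot be told apart. The resistant libraries come from a single selection, and nothing states that libraries of a group were grown as separate cultures, so every p-value below measures the spread between these samples, which may be technical. The organism field names mouse, whereas the cell line, the gene identifiers and the hg38 genome build are human.

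Libraries held 13821639 to 17251491 counts, and a count of 3 corresponded to 0.174 to 0.216 CPM (counts scaled to 1e+06 per library). Between libraries of a group the counts varied by 1.77 to 2.46 times the variance of pure counting (chi-square per degree of freedom over genes), against 20.01 to 23.77 times between groups, so no library repeated another. Mitochondrially encoded genes took 4.19% to 4.21% of parental counts and 5.11% to 5.35% of resistant counts. Luminal identity was present in every library: the 6 luminal markers examined (KRT8, KRT18, EPCAM, CDH1, HOXB13 and SPDEF) were all tested. Their summed level was 1681 to 1699 CPM in parental and 1624 to 1644 CPM in resistant cells. None of them was called, where 2.53% and 2.84% of all genes tested were called higher and lower. At FDR under 0.05, 2 were higher and 3 lower, against 17.1% and 18.4% of all genes. Of the 6 basal markers KRT5 had no count in any library, and the sum was 3.10 to 4.47 CPM in parental and 3.94 to 4.71 CPM in resistant cells. The 6 leukocyte and endothelial markers summed to at most 0.493 CPM, with CD3E at 0. The 6 neuroendocrine markers summed to 315.8 to 322.8 CPM in parental and 307.2 to 319.0 CPM in resistant cells, with CHGA lower (log2 fold change -2.26, SE 0.087, FDR 2.49e-24), CHGB and ENO2 higher at the FDR alone, and INSM1 at no more than 1 count. The 7 stromal markers summed to 129.6 to 133.9 CPM and 102.4 to 106.3 CPM, with LUM lower (-1.74, FDR 1.11e-26), VIM higher (1.76, FDR 2.32e-24) and COL1A2 at no more than 2 counts. Their part in the kallikrein results was not tested.

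Differential expression was tested with edgeR over 17142 genes, and a gene was called when its Benjamini-Hochberg FDR was under 0.05 and its log2 fold change was over 1 in either direction. Of the 10 kallikreins, 6 had enough counts to be tested (KLK1, KLK2, KLK3, KLK4, KLK11 and KLK15), and each of these 6 had at least 35 counts in every library of both groups. KLK4 and KLK1 were called higher in resistant cells, so 2 of 6, against 2.53% of all genes tested. KLK3, KLK2 and KLK15 were higher at the FDR alone, which brought the members higher at FDR under 0.05 to 5 of 6, against 17.1% of all genes. KLK11 was lower at the FDR alone, so 1 of 6 against 18.4%, and no member was called lower, against 2.84%. In 5 of the 6 genes every resistant library lay above every parental library in CPM, against 22.1% of all genes tested. The median log2 fold change of the 6 was 0.80, while the median over all genes was 0.0038 and the middle 95% of genes ran from -1.09 to 1.03.

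**Figure D1:**
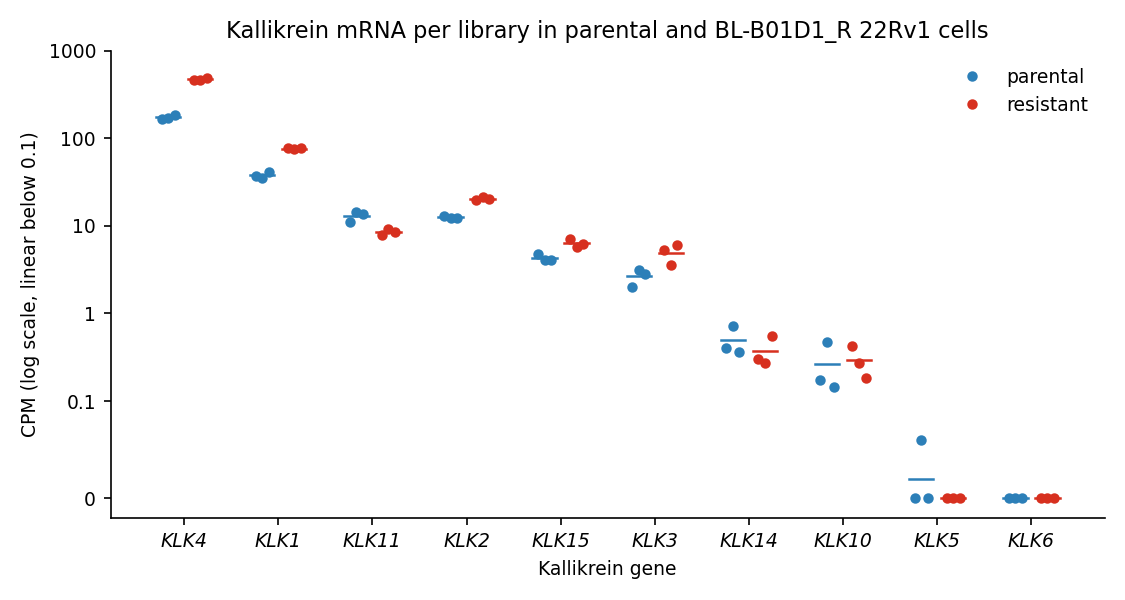
Level of each of the 10 kallikrein genes in each library, in CPM on a log axis that is linear below 0.1; points are libraries (3 parental in blue, 3 resistant in red) and lines are group means. KLK4 and KLK1 stand highest and rise in the resistant libraries, KLK11 lies lower there, and KLK5 and KLK6 lie at or near 0.

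KLK4, a trypsin-like kallikrein of the prostate that is also needed for tooth enamel to mature, was the most abundant family member and the one that rose most. The 3 parental libraries stood at 165.9, 168.9 and 184.1 CPM, and the 3 resistant libraries at 468.4, 467.3 and 485.1 CPM. The groups lay far apart, and the highest parental library stayed well below the lowest resistant one. The mean went from 173 ± 9.77 to 474 ± 9.99 CPM (SD, n = 3 each), a log2 fold change of 1.46 (SE 0.033, 95% interval 1.39 to 1.52), or 2.74-fold, with an edgeR FDR of 1.05e-32. KLK4 ranked 21 among all genes by p-value. In bulk RNA, a larger share of cells that express KLK4 and more KLK4 RNA per cell cannot be told apart, which holds for every gene below.

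KLK1, tissue kallikrein, which releases kinins from kininogen, doubled. The parental libraries had 36.7, 35.0 and 41.5 CPM and the resistant libraries 77.0, 74.6 and 77.4 CPM. Every resistant library was above every parental one, and the resistant libraries were the more uniform group. The mean went from 37.7 ± 3.39 to 76.3 ± 1.52 CPM (SD, n = 3 each), with a log2 fold change of 1.02 (SE 0.058, 95% interval 0.91 to 1.14; 2.03-fold) and an FDR of 1.68e-18. The estimate sits at the fold threshold: without parental replicate 2 it was 0.97 with an FDR of 5.98e-15, and KLK1 was then higher at the FDR alone.

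KLK3, which encodes PSA, was expressed at a low level in both groups. It had 35, 53 and 39 counts in parental cells and 87, 53 and 98 counts in resistant cells. Scaled to depth, these were 2.03, 3.16 and 2.81 CPM against 5.25, 3.603 and 6.04 CPM, so the groups did not overlap, but resistant replicate 2 lay close to the highest parental library. The log2 fold change was 0.91 (SE 0.21, 95% interval 0.48 to 1.33; 1.88-fold) with an FDR of 0.000606, the widest interval among the 6 genes. It was past the fold threshold without parental replicate 2 (1.06, FDR 0.000729) and without resistant replicate 2 (1.09, FDR 0.000169).

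KLK2, the kallikrein closest to PSA in sequence and an activator of its precursor, rose by less than KLK4. Parental libraries had 12.9, 12.3 and 12.5 CPM and resistant libraries 19.7, 21.2 and 20.3 CPM. Both groups were tight and clearly apart, with a log2 fold change of 0.70 (SE 0.092, 95% interval 0.51 to 0.88; 1.62-fold) and an FDR of 4.77e-08. Because KLK2 and KLK3 are close paralogs that lie next to each other, reads that match both could be assigned to either or discarded, and the split between them is uncertain. The log2 ratio of KLK2 to KLK3, each per length, was 2.209, 1.503 and 1.686 in parental and 1.447, 2.095 and 1.289 in resistant libraries, overlapping, with a mean difference of -0.19 (exact two-sided permutation test, p = 0.5, smallest possible 0.1).

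KLK15, another trypsin-like family member of the prostate that can activate the PSA precursor, was higher by a smaller factor. Its levels were 4.82, 4.11 and 4.11 CPM in parental and 7.06, 5.78 and 6.16 CPM in resistant libraries. The groups did not overlap, the log2 fold change was 0.54 (SE 0.16, 95% interval 0.21 to 0.87; 1.46-fold) and the FDR was 0.00801. The FDR passed its threshold only with resistant replicate 1 included; without it the log2 fold change was 0.46 and the FDR 0.0596. An antisense gene, AC011523.1, overlaps KLK15 and had 4, 8 and 5 counts in parental and 8, 13 and 9 counts in resistant libraries, too few to be tested. The sources used here do not state whether counting used strand, and without strand reads of the pair cannot be told apart.

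KLK11, a trypsin-like kallikrein of the prostate and other secretory epithelia, moved in the other direction. Parental libraries had 11.1, 14.4 and 13.5 CPM and resistant libraries 7.84, 9.25 and 8.63 CPM. Every resistant library was below every parental library. The mean went from 13.01 ± 1.73 to 8.57 ± 0.703 CPM (SD, n = 3 each), and the log2 fold change was -0.60 (SE 0.12, 95% interval -0.85 to -0.36) with an FDR of 9.37e-05. The sign held with any single library left out, over a range of -0.71 to -0.52.

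**Figure D2:**
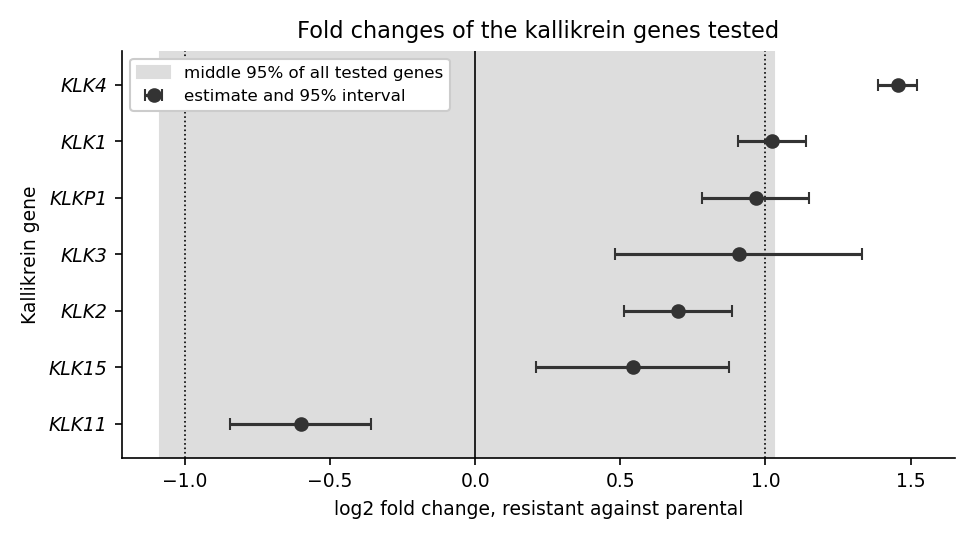
Log2 fold changes, resistant against parental, with 95% intervals for the 6 members tested and the pseudogene KLKP1; dotted lines mark the fold threshold and the gray band the middle 95% of all genes tested. KLK4 alone lies wholly beyond the threshold, the intervals of KLK1, KLKP1 and KLK3 span it, and KLK11 lies below 0.

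The remaining 4 members were at or near the limit of detection. KLK14, which acts with KLK5 in the shedding of skin cells, had 7, 12 and 5 counts in parental and 5, 4 and 9 in resistant libraries, a mean of 0.494 ± 0.193 against 0.376 ± 0.155 CPM (SD, n = 3 each). KLK10 had 3, 8 and 2 counts against 7, 4 and 3, a mean of 0.265 ± 0.184 against 0.293 ± 0.120 CPM. In both genes the groups overlapped. KLK5, an initiator of the epidermal cascade, had 1 count in parental replicate 2 and none elsewhere, and KLK6, a kallikrein abundant in the nervous system, had none in any library. A count of 0 allows up to 3 counts, or 0.174 to 0.216 CPM in these libraries, which covers counting error only. When no filter on low counts was applied, the edgeR FDR was 0.708 for KLK14, 0.944 for KLK10 and 0.617 for KLK5, so a difference was not detectable at this depth.

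Among 7 other kallikrein genes, 1 was tested. It was KLKP1, a pseudogene next to KLK4 and on the same strand, which had 201, 228 and 159 counts in parental and 419, 338 and 382 in resistant libraries, without overlap. Its log2 fold change was 0.97 (SE 0.092) with an FDR of 1.45e-11, and it was called, at 1.05, without parental replicate 2. KLK7, KLK8, KLK9, KLK12 and KLK13 had at most 3 counts in any library, and KLK9 had none. KLKB1, the plasma kallikrein gene on chromosome 4, which is not part of the cluster, had at most 5 counts.

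Levels of different genes were compared after division by gene length, as FPKM computed from the counts (CPM per kilobase of gene length). In parental cells the order was KLK4 at 89.4 ± 5.05 FPKM, KLK1 at 15.9 ± 1.43, KLK11 at 4.18 ± 0.555, KLK2 at 1.97 ± 0.050, KLK15 at 1.90 ± 0.178 and KLK3 at 0.575 ± 0.124 (SD, n = 3 each). The ranges of KLK2 and KLK15 overlapped, as did those of KLK3 and KLK14. In resistant cells it was KLK4 at 245 ± 5.17, KLK1 at 32.1 ± 0.640, KLK2 at 3.19 ± 0.117, KLK15 at 2.77 ± 0.287, KLK11 at 2.75 ± 0.226 and KLK3 at 1.07 ± 0.268 FPKM, with KLK15 and KLK11 overlapping. KLK11 therefore went from the third place to the fifth, behind KLK2 and overlapping KLK15. Among all genes tested, the FPKM of KLK4 moved from percentile 97.8 to 99.4, that of KLK1 from 81.3 to 91.7, and that of KLK11 from 49.3 to 39.8. PSA transcript was scarce by comparison. Per length, KLK4 exceeded KLK3 by 128.3 to 195.9 times in the parental and 192.6 to 310.9 times in the resistant libraries, ranges that overlapped. These factors and places rest on the gene lengths used, 1935 bases for KLK4 and 4639 for KLK3. In CPM, without length, KLK11 (mean 13.01) and KLK2 (12.58) overlapped in parental libraries.

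Summed over the 10 members, kallikrein transcript output was 109.7, 111.8 and 121.6 FPKM in parental and 284.6, 282.7 and 293.7 FPKM in resistant libraries. The groups did not overlap and the means, 114 ± 6.39 and 287 ± 5.87 (SD, n = 3 each), differed 2.51-fold (exact two-sided permutation test, p = 0.1, the smallest that 3 against 3 can give). Most of this was KLK4, and without it the sum went from 24.97 to 42.27 FPKM, or 1.69-fold. The KLK4 share of the summed FPKM was 78.2%, 78.1% and 78.2% in parental and 85.1%, 85.4% and 85.4% in resistant libraries. KLK1 took 13.9 ± 0.625% and 11.2 ± 0.165%, and KLK11 took 3.65 ± 0.453% and 0.960 ± 0.0839% (SD, n = 3 each). Measured as counts without length, the KLK4 share was 70.9% and 80.2%, the direction being the same. As a share of all counts in a library, the family took 0.0245% in parental and 0.0586% in resistant cells.

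**Figure D3:**
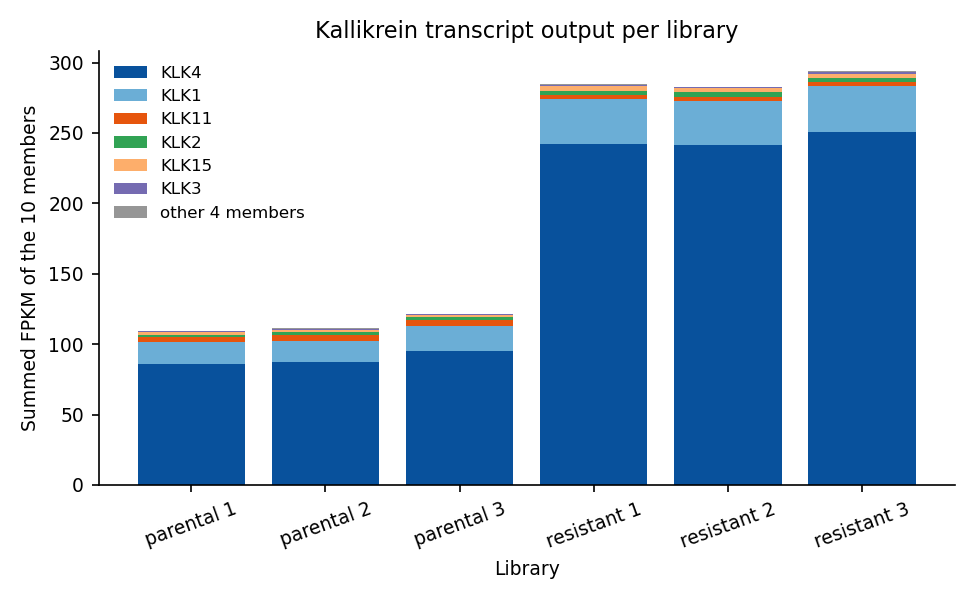
Summed FPKM of the 10 kallikrein genes in each library, bars starting at 0 and stacked by gene. The 3 resistant bars reach 282.7 to 293.7 FPKM against 109.7 to 121.6 FPKM in parental libraries, and KLK4 fills most of each bar.

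Ratios within a library do not depend on how libraries are scaled. Among the 15 pairs of tested members, the log2 count ratio did not overlap between groups in 10 pairs and overlapped in 5, 4 of which involved KLK3. The pairs share 6 genes that each already lay apart between groups in CPM. The same count was not made for pairs of other genes, so it is not read as particular to kallikreins. The widest shift was that of KLK4 to KLK11, whose mean log2 count ratio went from 3.74 to 5.79. KLK1 lost ground to KLK4 by 0.43 on the log2 scale despite its own rise, and KLKP1 lost 0.48. With 3 libraries a group no pair could pass an adjusted exact permutation test, and the smallest adjusted p over the 15 pairs was 0.15.

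Along the chromosome, the kallikreins that rose lay together. Kallikrein genes occupied chr19:50819148-51084245 (hg38), a span of 265.1 kb with 16 genes, KLKP1 included. The first stretch, of 91.6 kb, held in order KLK1 (50819148 to 50823787, minus strand), KLK15 (50825289 to 50837213, minus), KLK3 (50854915 to 50860764, plus), KLK2 (50861568 to 50880567, plus), KLKP1 (50882096 to 50896398, minus) and KLK4 (50906352 to 50910738, minus). All 6 of these genes were tested and all 6 were higher in resistant cells at FDR under 0.05, on both strands. After a gap of 32.6 kb, the second stretch ran from KLK5 (50943303 to 50953093, minus) to KLK14 (51077495 to 51084245, minus) over 140.9 kb with 10 genes. In it only KLK11 (51022216 to 51028039, minus) passed the filter, and it was lower. The other 9 genes of that stretch, KLK6 (50958631 to 50969673, minus) and KLK10 (51012739 to 51020175, minus) among them, had at most 12 counts in any library, and together 11 to 25 counts in a parental and 8 to 14 in a resistant library. The antisense genes AC011483.2, which overlaps KLK5 and KLK6, and AC011473.2, which overlaps KLK10, had no counts, and neither had AC011483.1 and AC011483.3, which overlap KLK6.

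**Figure D4:**
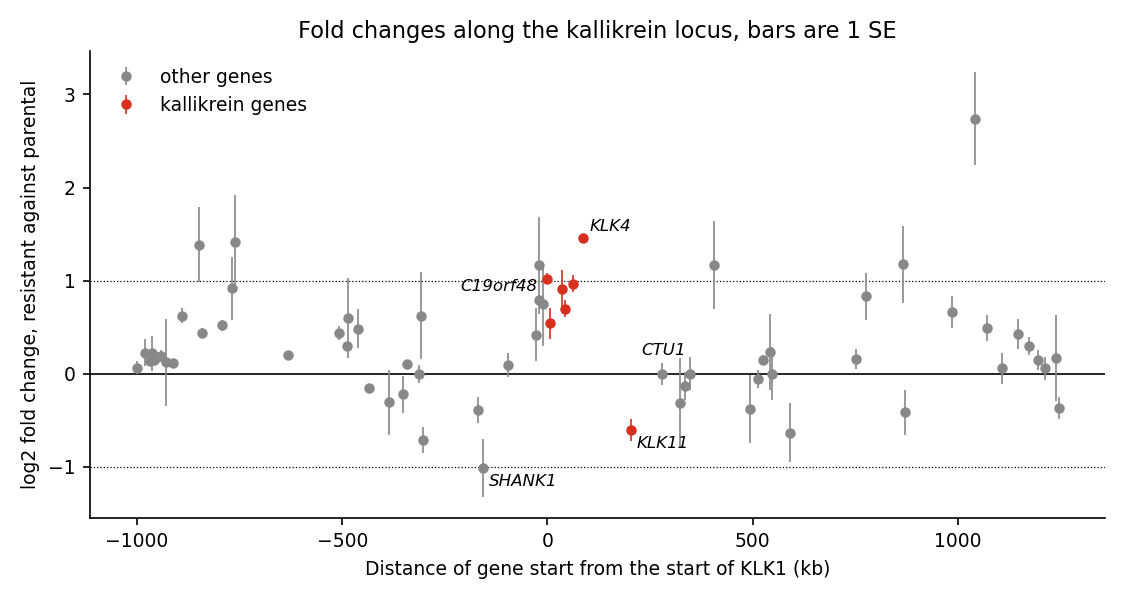
Log2 fold change, resistant against parental, with bars of 1 SE, for every tested gene within 1 Mb of the kallikrein span, plotted by distance from the start of KLK1 in kb; dotted lines mark the fold threshold. The 6 higher kallikrein genes (red) lie within 91.6 kb of each other, and KLK11 and CTU1, the nearest tested gene on the KLK14 side, lie below them. C19orf48, the nearest tested protein-coding gene before KLK1, lies at 0.79, within the range of the higher kallikrein genes.

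Around the cluster, 59 genes within 1 Mb that are not kallikreins were tested. Of these, 25 were higher and 5 lower at FDR under 0.05, against 17.1% and 18.4% of all genes tested. Their median log2 fold change was 0.17, against 0.0038 over all genes. With the fold threshold as well, 5 were called higher and 1 lower, against 2.53% and 2.84%. Called higher were SIGLEC16 (1.39), AC010624.4 (1.41), CD33 (1.17), SPACA6P-AS (1.17) and AC074141.1 (2.74), none of them above 1.33 CPM in the mean of either group. SHANK1 was called lower (-1.01, FDR 0.00909) at 2.08 against 1.03 CPM. The number called higher ranged from 6 with limma-voom to 0 when at least 10 counts were asked of every library. It was 2 without parental replicate 3 or resistant replicate 2, 3 without resistant replicate 1, and 1 without resistant replicate 3. SHANK1 was not called without parental replicate 1, resistant replicate 1 or resistant replicate 2, at -0.92, -0.88 and -0.96. Closer in, 10 genes that are not kallikreins were tested within 100 kb of the span or inside it. Of those, 1 was higher and 1 lower at FDR under 0.05, with a median log2 fold change of 0.0486. The nearest protein-coding genes tested on either side, picked for position after their values were seen, gave unlike values: C19orf48, before KLK1, went from 279.6 to 485.0 CPM (log2 fold change 0.79, SE 0.030, FDR 9.57e-25), and CTU1, after KLK14, was at 9.44 and 9.47 CPM (FDR 0.999).

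Genes linked to kallikrein activity were then examined by list, each beside its count. Kallikreins are held in check by serpins and Kazal- or Kunitz-type inhibitors. Of 19 inhibitor genes 4 were tested, with a median log2 fold change of 0.28. Among them 1 was called higher and none lower, against 2.53% and 2.84% of all genes tested. SPINK1, a trypsin inhibitor secreted by a subset of prostate cancers, was the called gene, at 0.944 ± 0.472 against 2.76 ± 0.679 CPM (SD, n = 3 each; log2 fold change 1.52, SE 0.31, FDR 0.00012). SPINK5, which encodes the LEKTI inhibitor of the skin kallikreins, was higher at the FDR alone (0.50, FDR 0.00863). Far more abundant were the remaining tested inhibitors, SPINT1 and SPINT2, for which no difference was detected. SPINT1 was at 122.9 and 128.5 CPM (FDR 0.185) and SPINT2 at 245.9 and 244.7 CPM (FDR 0.885). The serpins that bind kallikreins in plasma and semen, SERPINA1, SERPINA3, SERPINA4 and SERPINA5, had no count in any library.

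Of 28 substrate and receptor genes 13 were tested, with a median of -0.03. Among them 1 was called higher and 3 lower, against 2.53% and 2.84% of all genes tested. IGFBP3, an insulin-like growth factor carrier that PSA can cleave, went from 7.73 ± 2.15 to 48.8 ± 2.20 CPM (SD, n = 3 each), a log2 fold change of 2.68 (SE 0.099, FDR 8.02e-25). F2R, which encodes the protease-activated receptor PAR1, was lower (7.35 to 2.18 CPM, -1.74, FDR 3.59e-10), as was the adhesion molecule gene L1CAM (27.9 to 10.6 CPM, -1.40, FDR 2.61e-15). TGFB2 was called lower at -1.02 with an FDR of 0.0328, but it was not called when any single library other than resistant replicate 2 was left out (FDR 0.0638 to 0.114), nor by DESeq2 (0.102) or without a filter (0.0559). The semenogelin genes SEMG1 and SEMG2, whose products PSA cleaves in semen, and KNG1, which encodes the kininogen that KLK1 cuts, had no counts, and F2RL1, which encodes PAR2, a receptor that several kallikreins cleave, was at 30.6 and 29.4 CPM (FDR 0.587).

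Of 27 other serine protease genes 15 were tested, with a median of -0.12. Among them none was called higher and 3 lower, against 2.53% and 2.84% of all genes tested. At FDR under 0.05, 4 were higher and 6 lower, against 17.1% and 18.4%. PRSS21 went from 71.4 to 32.1 CPM (-1.15, FDR 1.22e-19), HTRA1 from 9.68 to 4.29 CPM (-1.18, FDR 1.39e-08) and TMPRSS4 from 2.11 to 0.644 CPM (-1.68, FDR 0.000147). TMPRSS2, an androgen-induced membrane protease of the prostate, was higher at the FDR alone (17.3 to 29.8 CPM, 0.79, FDR 4.74e-10).

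Transcription factors and coactivators that act on KLK genes in luminal cells were examined next. Of 12 such genes 10 were tested and none was called, where 2.53% and 2.84% of all genes were called higher and lower. At FDR under 0.05, 2 were higher and 5 lower, against 17.1% and 18.4% of all genes, and the median was -0.12. FOXA1, a pioneer factor of luminal cells, was at 455.2 and 403.6 CPM (-0.17, FDR 4.32e-06). The prostate homeobox gene HOXB13 was lower (438.5 to 314.8 CPM, -0.48, FDR 2.29e-17), as was GATA2, another luminal transcription factor (211.4 to 176.7 CPM, -0.26, FDR 4.9e-07). NCOA2, a nuclear receptor coactivator, was the regulator that rose most (89.0 to 138.2 CPM, 0.63, FDR 5.88e-17).

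Of 35 genes known to be induced by androgen in luminal cells 32 were matched in the table and 26 tested, with 5 called higher, 1 called lower and a median of 0.12. At FDR under 0.05, 13 were higher and 6 lower, against 17.1% and 18.4% of all genes tested. The shares called over all genes were 2.53% higher and 2.84% lower. TMEFF2, a membrane protein gene of prostate and brain, went from 38.9 ± 3.17 to 364.5 ± 10.02 CPM (SD, n = 3 each; log2 fold change 3.22, SE 0.042, FDR 1.99e-41). RHOU (1.59, FDR 6.78e-35), SPOCK1 (1.66, FDR 8.56e-24), PLPP1 (1.22, FDR 1.14e-18) and PART1 (1.75, FDR 3.77e-07) were also called higher. UGT2B15, which encodes an enzyme that inactivates androgens, was called lower (-1.06, FDR 2.88e-08), and was at -0.99 without parental replicate 1. FKBP5, a widely used androgen response gene that was named after its value was seen, stayed below the fold threshold (335.2 to 626.2 CPM, 0.90, FDR 3.19e-27). The list therefore held genes that moved in both directions, as all genes tested did. A link of these genes to the kallikreins was not tested.

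**Figure D5:**
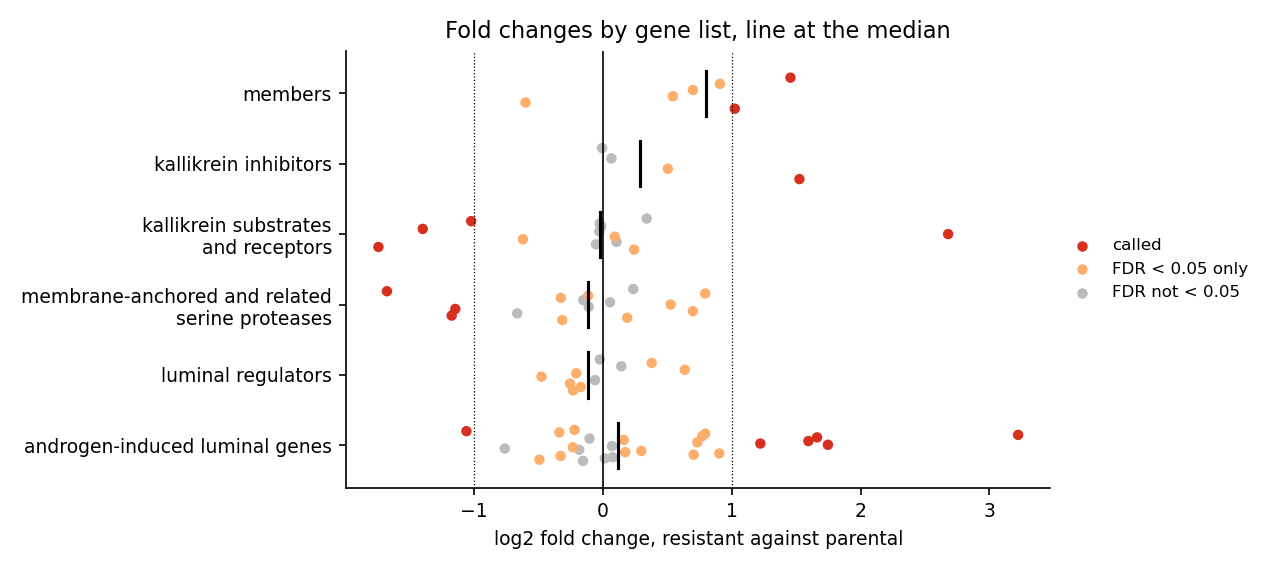
Log2 fold changes, resistant against parental, of the tested genes of each list, with black lines at the medians; red points were called, orange points passed the FDR alone and gray points did not. The kallikreins (members, top row) have a median of 0.80, against medians of -0.12 to 0.28 in the 5 other lists.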

How the data were processed

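Poly(A) RNA-seq libraries of human 22Rv1 cells (3 parental, 3 resistant) were read from one table. The authors mapped reads to hg38 with HISAT2 2.0.5 after fastp and counted them with featureCounts 1.5.0-p3, and the deposited values are raw counts per gene; the handling of strand and of reads matching several genes is not given in the sources used here. The 6 columns were matched to the samples by group name and number.

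Counts were tested with edgeR 4.0.16 in R 4.3.3 (quasi-likelihood F test, filterByExpr, TMM), and p-values were adjusted by Benjamini-Hochberg across all 17142 genes that passed the filter; the biological coefficient of variation was 3.51%. The study's methods name limma; limma-voom (3.58.1) and DESeq2 (1.42.0) were alternatives. CPM is counts scaled to 1e+06 per library; FPKM was computed here from counts and the table's gene lengths. Single values were compared by exact two-sided permutation tests. The fit was tested on simulated data.

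The 10 members and all lists were chosen with earlier results of these data known. Named besides the members are the other kallikrein genes; in each list the called genes, or else the 3 with the smallest FDR; FOXA1 and HOXB13; and locus neighbors that were called or overlap a member. A few further list genes were named after their values were seen. No human sequence was used here. Some list genes are not reported here, and the lists were counted without them.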

Additional observations from a re-analysis of the deposited data

How the results depend on the processing

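The members called (2 higher, none lower) and those higher (5) or lower (1) at FDR under 0.05 stayed within 1.5 times their number under library-size or upper-quartile scaling, DESeq2, limma-voom, without a filter, under a filter of 10 or more counts in each library, and with any 1 library left out. The number called higher ranged from 2 to 3 when 1 library was left out. Of 78 alternative fold changes of members, 74 stayed on the same side of both thresholds, 4 crossed one (KLK1, KLK3 and KLK15, given above) and none reversed. Replicate numbers did not pair the samples: same-numbered parental and resistant libraries had correlations of -0.00806, -0.0196 and -0.0157 between their deviations from group means. With the replicate block, 2 members were again called higher, KLK1 at 1.02 (FDR 2.46e-14) and KLK4 at 1.45 (FDR 3.32e-24), and 0 lower. The share of each member depended on length: as counts, KLK4 took 70.9% and 80.2%, and KLK11 took 5.33% and 1.45%. Counted by the FDR alone, list genes higher went from 5 to 13 (androgen-induced), 1 to 3 (substrates), 1 to 2 (inhibitors), 0 to 4 (other proteases) and 0 to 2 (regulators), and those lower from 1 to 6, 3 to 4, 0 to 0, 3 to 6 and 0 to 5. Over all genes tested, 17.1% were higher and 18.4% lower at FDR under 0.05. SPINK1 and TMPRSS4 were not tested when at least 10 counts were asked of every library. Depth limits KLK5, KLK6, KLK10 and KLK14, and KLK3 to a wide interval.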
